A study of Mus musculus with 2 samples.

Results

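Mitochondria keep their own pool of NADPH, the reductant that recharges glutathione and thioredoxin and feeds proline synthesis. Nicotinamide nucleotide transhydrogenase, the product of *Nnt*, sits in the inner membrane and uses the proton gradient to pass hydride from NADH to NADP+. The other members encode enzymes of the mitochondria: *Idh2* the NADP-dependent isocitrate dehydrogenase, *Me2* and *Me3* the mitochondrial malic enzymes, *Glud1* glutamate dehydrogenase, and *Mthfd2*, *Mthfd1l* and *Aldh1l2* enzymes of mitochondrial folate metabolism, of which *Mthfd1l* acts in the pathway without making NADPH itself. *Nnt* is also known as a substrain variant: C57BL/6J mice carry a deletion of several internal coding exons that other C57BL/6 substrains lack, and the mouse reference genome was made from C57BL/6J. The 8 genes were taken by symbol from the 27998 genes of the count tables, and all 8 were found. They were chosen by the level of *Nnt*, which was already known to differ between the libraries compared here, so the values of *Nnt* are a description without a test.

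Ileal epithelial cells of undamaged mice aged 8 weeks were profiled by droplet single-cell RNASeq, in which each captured mRNA molecule is counted once through a unique molecular identifier (UMI). There were 2 libraries, 1 from WT mice and 1 from *Tipe0*-/- mice, which carry a knockout of *Tnfaip8*, the gene of TIPE0. The treatment protocol in the labels calls the digested material enteroids, whereas the titles and the methods of the study name enterocytes, so whether the cells had been in culture is not settled by the sources used here. The labels give C57BL/6 as the strain of both and name no substrain. The methods of the study state that WT mice were bought from The Jackson Laboratory or bred in house. Each library was made from the pooled cells of several mice, so there is no replicate of either genotype, no test between genotypes was possible, and genotype, origin of the mice, pool and library cannot be told apart. The WT library held 3402 cells and 38127808 UMIs, and the *Tipe0*-/- library 2006 cells and 23897126 UMIs. A cell had a median of 7760 UMIs in WT and 7307.5 in *Tipe0*-/-, and mitochondrial transcripts took 6.59% and 8.56% of all UMIs. The targeted gene, *Tnfaip8*, had 372 WT and 57 *Tipe0*-/- UMIs, a log2 ratio of -2.02. Only 9 cell barcodes occurred in both libraries. The epithelial marker *Epcam* was at 1334 and 1513 counts per 1000000 UMIs of the library (CPM).

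The reads are tags from the 3' ends of transcripts, and the gene model of *Nnt* (ENSMUSG00000025453) lies on chromosome 13 of GRCm38 from 119335448 to 119408997 on the minus strand, with 17 exons, of which 16 are coding, and a coding length of 2505 bases. This model rests on the C57BL/6J reference genome, so its exon count and coding length need not be those of the undeleted gene. A 3' tag lies outside the internal exons of the known deletion, so these counts cannot show whether the exons were present in either library. *Idh2* lies on chromosome 7 from 80094846 to 80115392, *Me2* on chromosome 18 from 73769903 to 73815449, *Me3* on chromosome 7 from 89632392 to 89854359, *Glud1* on chromosome 14 from 34310727 to 34345265, *Mthfd2* on chromosome 6 from 83305691 to 83325908, *Mthfd1l* on chromosome 10 from 3973118 to 4167081 and *Aldh1l2* on chromosome 10 from 83487450 to 83534140. Of the genes that overlap a member, those in the tables are A230065N10Rik, which is antisense to *Me3*, and D10Wsu102e, on the strand opposite to *Aldh1l2*. Whether the counting used strand is not given in the sources used here, so the low counts of *Me3* and *Aldh1l2* are uncertain.

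Among the 7 members with at least 50 UMIs, *Nnt* differed most between the libraries. The WT library held 464 *Nnt* UMIs, or 12.2 CPM (11.1 to 13.3), against 983 for *Tipe0*-/-, which is 41.1 CPM (38.6 to 43.8). The level was 3.38-fold higher in the *Tipe0*-/- library, a log2 ratio of 1.76 (1.60 to 1.92). All intervals here are exact 95% intervals for counting error and do not cover differences between mice. The 11665 genes that had 50 or more UMIs over the 2 libraries had a median log2 ratio of 0.15, and *Nnt* ranked 13 from the top. A gene was called higher or lower where it lay at least 1.5-fold from that median. By this rule 494 genes, or 4.23%, were higher and 805, or 6.90%, were lower in the *Tipe0*-/- library. Without centring on the median, 63.0% of the genes past the fold were higher, against 38.0% with it. *Aldh1l2* had too few UMIs to be tested. Of the other 7 members, 2 were called higher, *Nnt* and *Me3*, and 0 were called lower. The median log2 ratio of the 7 was 0.27.

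**Figure D1:**
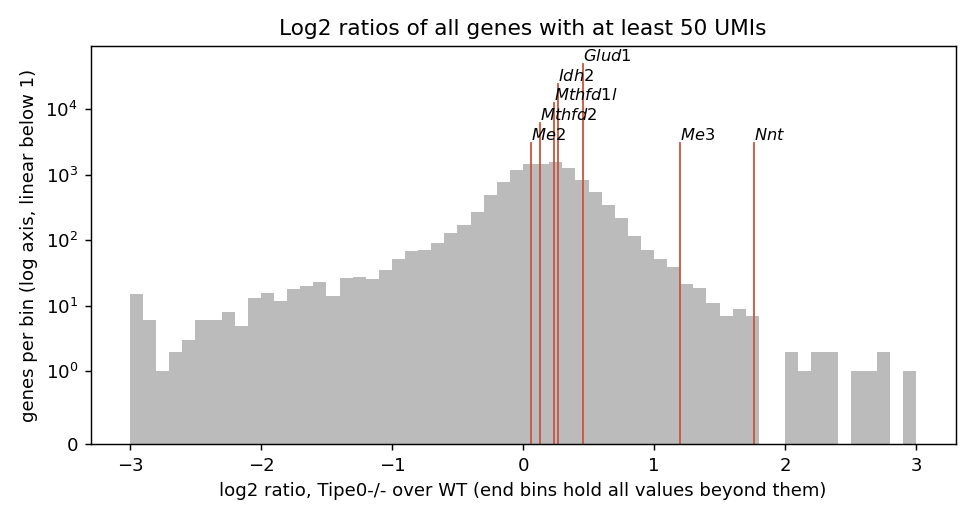
Number of genes (vertical axis, logarithmic and linear below 1) in bins of the log2 ratio of *Tipe0*-/- over WT (horizontal axis) for the 11665 genes with at least 50 UMIs. The end bins hold all values beyond them, and the lines mark 7 members. *Nnt* at 1.76 and *Me3* at 1.20 lie in the right tail, and the other 5 lie between 0.06 and 0.46.

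The matrix dehydrogenases differed less. *Glud1*, which turns glutamate into 2-oxoglutarate, was at 61.0 CPM (58.6 to 63.6) in the WT and 83.8 CPM (80.2 to 87.6) in the *Tipe0*-/- library, a log2 ratio of 0.46 (0.37 to 0.54). *Idh2* was at 66.6 CPM (64.0 to 69.2) and 80.3 CPM (76.7 to 83.9), a log2 ratio of 0.27 (0.18 to 0.36). Both intervals lay above the median of all genes, but neither gene reached the fold for a call. *Me2*, the malic enzyme that uses NAD+ and NADP+, was at 107 CPM (104 to 111) and 111 CPM (107 to 116), a log2 ratio of 0.06 (-0.02 to 0.13), which is below the median of all genes. *Me3*, its NADP-dependent relative, was rare, with 45 WT and 65 *Tipe0*-/- UMIs, or 1.18 CPM (0.861 to 1.58) and 2.72 CPM (2.1 to 3.47). Its log2 ratio of 1.20 (0.63 to 1.79) ranked 88.

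The folate enzymes were close to the median of all genes or barely detected. *Mthfd2*, which oxidizes methylene-tetrahydrofolate, was at 21.3 CPM (19.8 to 22.8) and 23.3 CPM (21.4 to 25.3), a log2 ratio of 0.13 (-0.03 to 0.29). *Mthfd1l*, which releases formate, was at 9.70 CPM (8.74 to 10.7) and 11.5 CPM (10.1 to 12.9), a log2 ratio of 0.24 (0.01 to 0.47) that turned to -0.19 once each cell was thinned to 3000 UMIs. Both intervals contained the median of all genes. *Aldh1l2*, which oxidizes formyl-tetrahydrofolate, had 8 UMIs in 7 WT cells, all of them in the Paneth-like class described below. It had 0 UMIs in 2006 *Tipe0*-/- cells, which allows up to 0.126 CPM and up to 0.150% of cells with a UMI. The WT level of 0.210 CPM (0.0906 to 0.413) has an interval that includes this limit, while the interval of the log2 ratio ended at -0.10, just below 0. With 8 UMIs in all, the gene was under the minimum of 50 UMIs for a call.

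**Figure D2:**
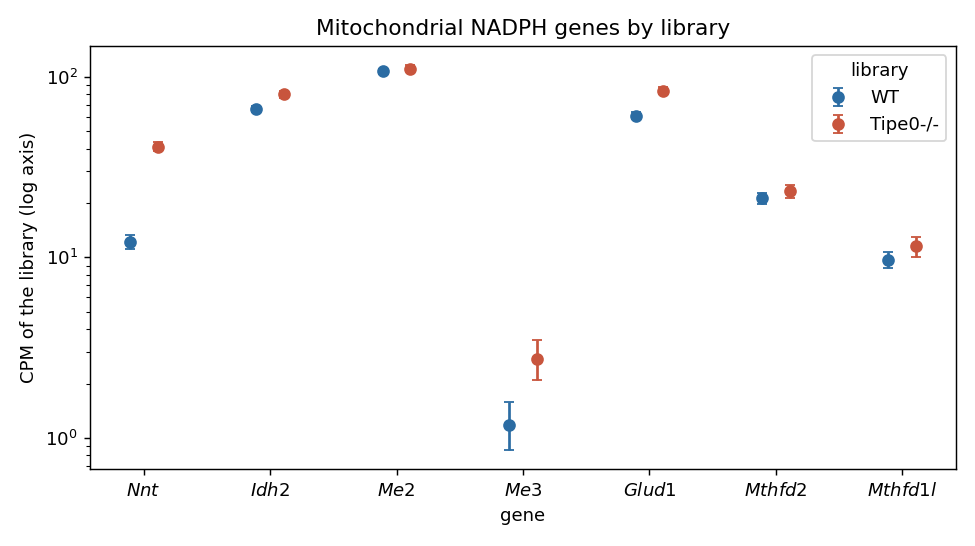
CPM of the library (vertical axis, logarithmic) for 7 members (horizontal axis) in the WT and *Tipe0*-/- libraries, 1 point per library with its exact 95% Poisson interval. *Nnt* stands at 12.2 and 41.1 CPM, whereas *Me2* stands at 107 and 111 CPM.

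The difference in *Nnt* lay in how many cells had a UMI, and in how many had several. In the WT library 2988 of 3402 cells had no *Nnt* UMI, 368 had 1, 43 had 2, 2 had 3 and 1 had 4. In the *Tipe0*-/- library 1307 of 2006 cells had none, 484 had 1, 161 had 2, 43 had 3 and 11 had 4 or more. The 10 cells richest in *Nnt* held 5.17% of its WT and 4.48% of its *Tipe0*-/- UMIs, and no cell had more than 5. As depth differs between cells, each was thinned to 3000 UMIs. A *Nnt* UMI was then found in 134 of 3402 WT cells, or 3.94% (3.31 to 4.65), and in 245 of 2006 *Tipe0*-/- cells, or 12.2% (10.8 to 13.7), a difference of 8.27 percentage points (6.70 to 9.91). Unthinned, the shares were 12.2% and 34.8%. No cell type here is known to lack *Nnt*, so free RNA could not be gauged from it. *Glud1* also had a UMI in more thinned cells of the *Tipe0*-/- library, with 22.9% against 16.2%, a difference of 6.71 points (4.49 to 8.98). So did *Me3*, with 1.10% against 0.382%, a difference of 0.715 points (0.225 to 1.30) on 22 and 13 cells. The corresponding differences were 0.401 points (-1.70 to 2.54) for *Idh2*, -0.208 points (-2.66 to 2.27) for *Me2*, -0.0464 points (-1.34 to 1.31) for *Mthfd2* and -0.478 points (-1.45 to 0.551) for *Mthfd1l*. The intervals of these 4 genes contained 0.

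To see the genes by cell type, clusters were made from all cells of the 2 libraries without the members, the pathway genes described below and the genes that the study lists as different between the genotypes. The 15 clusters gave 7 classes named from markers and 2 unnamed clusters, which are called by their leading genes, *Akr1c19*-*Gsdmc3* and *Slc40a1*-*Apol10a*. Goblet-like cells were led by *Spdef*, *Zg16* and *Clca1*, Paneth-like cells by defensin genes, tuft-like cells by *Dclk1* and *Trpm5*, stem-like cells by *Lgr5*, *Olfm4* and *Ascl2*, and cycling-like cells by *Cdc20* and *Ube2c* in 1 cluster and by genes of DNA replication in the other. *Sct*, an enteroendocrine marker, led 1 stem-like cluster. The enterocyte-like class joined 3 clusters that differed in makeup. The cluster led by *U90926* and *Saa1* had 365 WT and 66 *Tipe0*-/- cells, the one led by *Arg2* and holding *Fabp6* 178 and 73, and the one led by *Apoa4* 76 and 160. The lymphocyte-like cluster mixed T cell and B cell genes and had only 16 *Tipe0*-/- cells against 92 WT cells.

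*Nnt* was higher in the *Tipe0*-/- library in 9 of 9 classes, and the interval of its log2 ratio lay above 0 in 8 of them. In stem-like cells it was at 25.2 CPM (20.1 to 31.1) in the WT and 72.0 CPM (62.8 to 82.2) in the *Tipe0*-/- library, a log2 ratio of 1.51 (1.15 to 1.89). Cycling-like cells had 15 and 45.4 CPM, a log2 ratio of 1.60 (1.24 to 1.97). Goblet-like cells had 14.2 and 38.4 CPM, a log2 ratio of 1.43 (1.13 to 1.73). These 3 classes had the most *Nnt* UMIs and the narrowest intervals. Tuft-like cells had 11.3 and 44.1 CPM, a log2 ratio of 1.95 (1.21 to 2.76). Enterocyte-like cells had 7.0 and 29.9 CPM, a log2 ratio of 2.09 (1.5 to 2.71). Paneth-like cells had 5.22 and 27.8 CPM, a log2 ratio of 2.40 (1.85 to 3.01). In the Paneth-like class the median log2 ratio of all genes was itself 0.48, and *Nnt* lay 1.92 above it.

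The *Akr1c19*-*Gsdmc3* cluster had 8.39 and 45.7 CPM of *Nnt*, a log2 ratio of 2.39 (1.21 to 3.83), and the *Slc40a1*-*Apol10a* cluster 11.0 and 27.6 CPM, a log2 ratio of 1.32 (0.62 to 2.03). In the lymphocyte-like class, the class that is not epithelial, *Nnt* had 6 WT and 3 *Tipe0*-/- UMIs, or 12.5 CPM (4.59 to 27.2) and 35.2 CPM (7.25 to 103), and the interval of its log2 ratio of 1.60 (-1.14 to 3.72) contained 0. Enteroendocrine-like cells formed a cluster only when 2000 variable genes were used, with 40 WT and 26 *Tipe0*-/- cells. There *Nnt* had 13 and 28 UMIs, or 27.4 and 63.7 CPM, a log2 ratio of 1.19 (0.22 to 2.29). By cluster, the log2 ratio of *Nnt* was above 0 in 15 of 15 clusters and its interval lay above 0 in 13. The exceptions were the lymphocyte-like cluster and a goblet-like cluster led by *Zg16*, with 0.85 (-0.16 to 1.84). In cells thinned to 3000 UMIs, the share with a *Nnt* UMI was 6.03% of WT and 17.6% of *Tipe0*-/- stem-like cells, and 2.26% and 9.36% of enterocyte-like cells. The interval of the difference lay above 0 in the stem-like, cycling-like, enterocyte-like, goblet-like, Paneth-like and *Akr1c19*-*Gsdmc3* cells, and contained 0 in the tuft-like, lymphocyte-like, enteroendocrine-like and *Slc40a1*-*Apol10a* cells. The enterocyte-like cluster led by *Apoa4* rested on 1 WT UMI against 33, and the other enterocyte-like clusters had log2 ratios of 1.96 (0.87 to 2.98) and 1.74 (0.76 to 2.78).

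**Figure D3:**
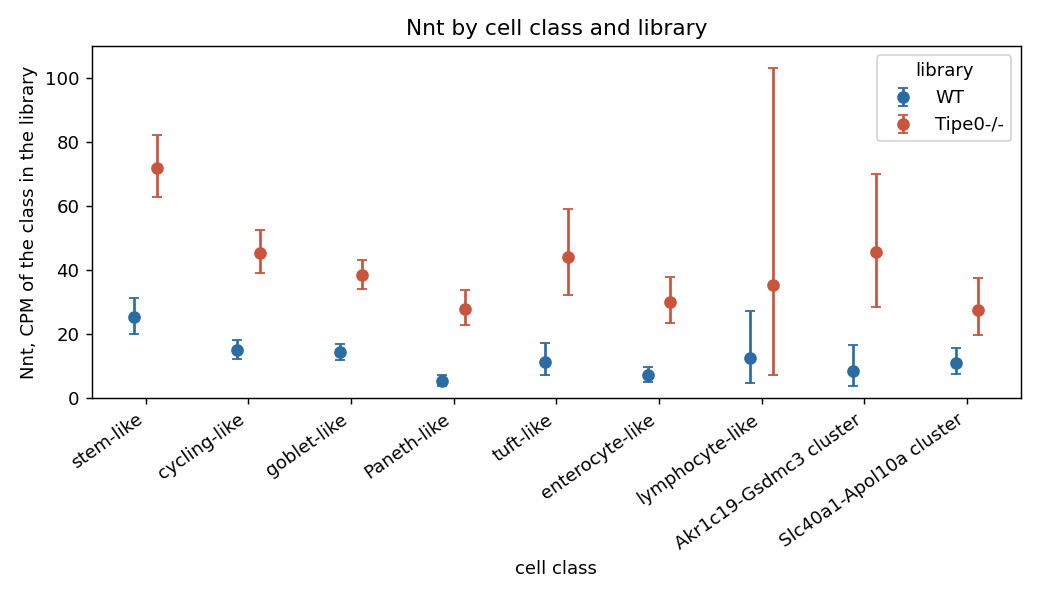
*Nnt* in CPM of the class (vertical axis) for 9 cell classes (horizontal axis) in the WT and *Tipe0*-/- libraries, 1 point per library with its exact 95% Poisson interval. In every class the *Tipe0*-/- point is above the WT point, and the intervals overlap only in the lymphocyte-like class.

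Among the 9 classes, *Nnt* in CPM was highest in stem-like cells in both libraries. The WT level of the enteroendocrine-like cells from the other clustering, 27.4 CPM (14.6 to 46.9), was above the stem-like value with an interval that overlapped it. Their *Tipe0*-/- level, 63.7 CPM (42.3 to 92.0), was below the stem-like value and overlapped it as well. In the WT library the stem-like class was highest and apart from the cycling-like class that came next, and every later pair of neighbours in the order overlapped, down to the Paneth-like class. The wide interval of the lymphocyte-like class, 4.59 to 27.2 CPM, overlapped the stem-like interval too. The stem-like level was 4.82-fold that of the Paneth-like class (3.22 to 7.37). In the *Tipe0*-/- library the stem-like interval overlapped that of the *Akr1c19*-*Gsdmc3* cluster, which came next, and that of the lymphocyte-like class (7.25 to 103 CPM). It was apart from that of the cycling-like class (39.1 to 52.5 CPM). The lowest *Tipe0*-/- levels, in the enterocyte-like and Paneth-like classes and the *Slc40a1*-*Apol10a* cluster, did not differ from each other beyond their intervals. As depth differed between classes, CPM does not give the level per cell. Without thinning, 44.8% of stem-like, 53.2% of Paneth-like and 61.2% of tuft-like *Tipe0*-/- cells had a *Nnt* UMI. In WT these shares were 17.2%, 11.7% and 13.1%. After thinning, the share was 17.6% (13.7 to 22.1) in stem-like *Tipe0*-/- cells and 17.8% (9.84 to 28.5) in the *Akr1c19*-*Gsdmc3* cluster. In WT it was 6.03% in stem-like and 2.84% in Paneth-like cells.

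Among the 9 classes, *Idh2* and *Glud1* in CPM were lowest in enterocyte-like and Paneth-like cells in both libraries. Paneth-like cells were the deepest by median, so their CPM does not give the level per cell. Unthinned, 38.7% of WT and 59.7% of *Tipe0*-/- Paneth-like cells had an *Idh2* UMI, against 47.3% and 46.0% of stem-like cells. For *Glud1* the shares were 41.8% and 59.7%, against 43.4% and 55.8%. *Idh2* was at 22.7 CPM (18.8 to 27.2) in WT and 34.6 CPM (27.5 to 43.0) in *Tipe0*-/- enterocyte-like cells, and at 97.5 CPM (87.2 to 109) and 85.7 CPM (75.7 to 96.7) in stem-like cells. The interval of its log2 ratio lay above 0 in 4 of 9 classes, with 0.86 (0.54 to 1.18) in Paneth-like, 0.61 (0.18 to 1.03) in enterocyte-like, 0.49 (0.12 to 0.85) in tuft-like and 0.18 (0.04 to 0.32) in goblet-like cells. In stem-like cells the ratio was -0.19 (-0.43 to 0.05). In the stem-like cluster led by *Lgr5* and *Rdh1* it was -0.48 (-0.89 to -0.08), the single cluster with an interval for *Idh2* below 0. In thinned cells, the share with an *Idh2* UMI differed by 0.153 points (-6.09 to 7.36) in Paneth-like and 1.47 (-1.44 to 4.95) in enterocyte-like cells. The difference was 8.88 points (-4.64 to 24.5) in tuft-like and -0.523 (-5.06 to 4.13) in goblet-like cells. All 4 of these intervals contained 0. In thinned stem-like cells the share was lower in the *Tipe0*-/- library, by -6.85 points (-13.0 to -0.573). *Glud1* was at 34.3 CPM (29.4 to 39.6) in WT and 65.8 CPM (55.8 to 77.0) in *Tipe0*-/- enterocyte-like cells, a log2 ratio of 0.94 (0.62 to 1.26). The interval for *Glud1* lay above 0 in 7 of 9 classes and 11 of 15 clusters, and its ratio in tuft-like cells was 0.00 (-0.39 to 0.37). Most genes lay above 0, 69.3% of them in the whole libraries, so the intervals were also set against the median log2 ratio of all genes in each class. They lay above that median in 4 of 9 classes for *Glud1*, in 3 for *Idh2*, in 3 for *Me2*, in 1 for *Me3* and in 8 for *Nnt*.

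**Figure D4:**
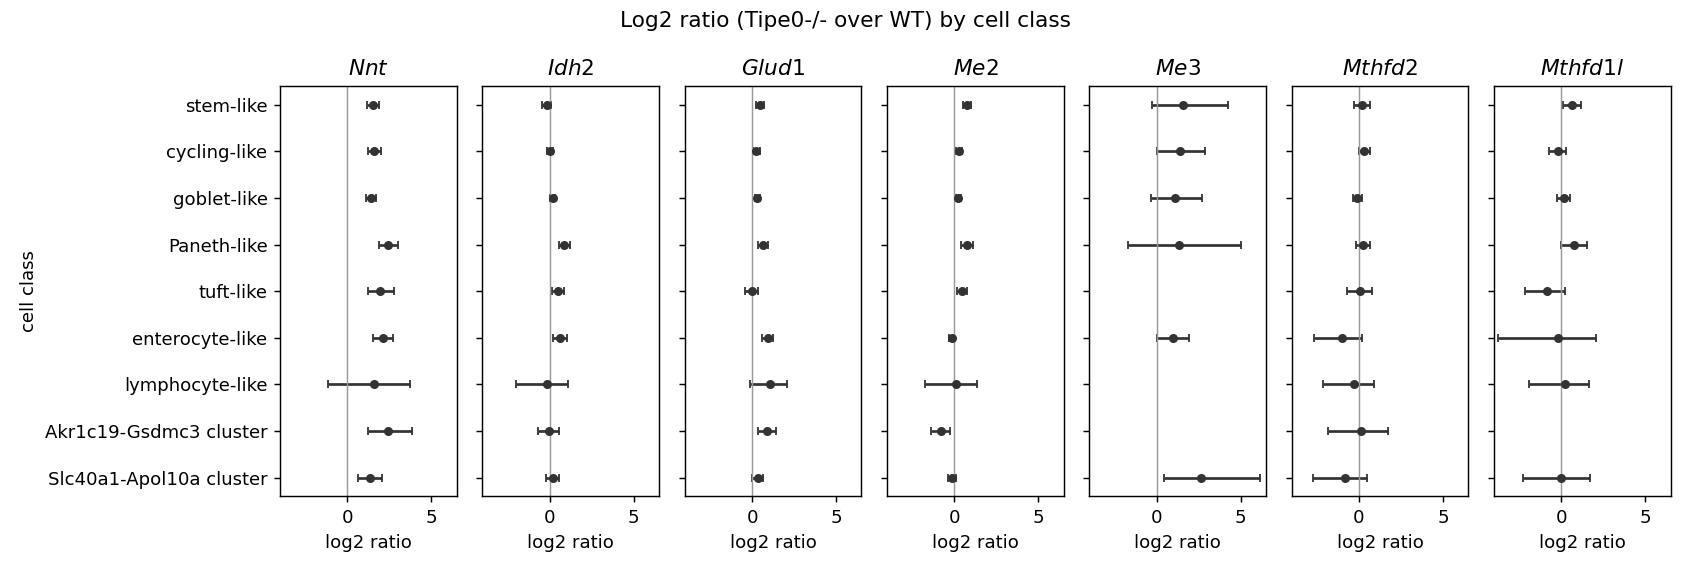
Log2 ratio of *Tipe0*-/- over WT (horizontal axis) with its exact 95% interval for 7 members (panels) in 9 cell classes (vertical axis). No point is drawn where a library had no UMI. The *Nnt* points lie between 1.32 and 2.40, the *Mthfd2* intervals all contain 0, and the *Me2* points lie on both sides of 0.

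*Me2* followed another order over the classes than *Idh2* and *Glud1*. It was highest in enterocyte-like cells, at 263 CPM (249.8 to 278) in the WT and 235 CPM (216 to 256) in the *Tipe0*-/- library, and lowest in Paneth-like cells, at 20.1 CPM (16.9 to 23.8) and 33.7 CPM (28.1 to 40.2). The enterocyte-like level in CPM was 13.1-fold (11.0 to 15.7) and 6.98-fold (5.74 to 8.54) the Paneth-like level in the WT and the *Tipe0*-/- library. Unthinned, a *Me2* UMI was found in 34.8% of Paneth-like and 31.8% of stem-like WT cells, so the deep Paneth-like cells were not lowest by that share. Although the whole libraries barely differed, the classes did. In stem-like cells *Me2* was at 58.4 CPM (50.5 to 67.1) in the WT and 98.4 CPM (87.6 to 110.2) in the *Tipe0*-/- library, a log2 ratio of 0.75 (0.49 to 1.02). The ratio was 0.74 (0.38 to 1.10) in Paneth-like, 0.47 (0.16 to 0.78) in tuft-like, 0.26 (0.09 to 0.43) in cycling-like and 0.24 (0.10 to 0.38) in goblet-like cells. In the Paneth-like class it lay 0.26 above the median of all genes of the class, 0.48, which its interval contained. In the *Akr1c19*-*Gsdmc3* cluster *Me2* was at 131 CPM (109 to 156) in the WT and 76.2 CPM (53.1 to 106) in the *Tipe0*-/- library, a log2 ratio of -0.77 (-1.37 to -0.23). In thinned cells, the share with a *Me2* UMI differed by 7.94 points (2.27 to 13.7) in stem-like cells. Every other class had an interval that contained 0, with -12.9 points (-24.9 to 0.491) in the *Akr1c19*-*Gsdmc3* cluster, -3.25 (-10.3 to 3.83) in enterocyte-like and -1.06 (-5.62 to 3.61) in goblet-like cells.

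In the enterocyte-like class as a whole the log2 ratio of *Me2* was -0.16 (-0.31 to -0.02), and in none of its 3 clusters did the interval lie below 0. The ratio was 0.07 (-0.17 to 0.29) in the cluster led by *U90926*, -0.02 (-0.29 to 0.24) in the one led by *Arg2* and 1.08 (0.58 to 1.63) in the one led by *Apoa4*. The intervals of the *U90926* and *Arg2* clusters include the value of the class, and that of the *Apoa4* cluster does not. The *Apoa4* cluster had the lowest *Me2* of the 3, at 86.0 CPM in the WT and 183 CPM in the *Tipe0*-/- library against 291 and 305 CPM in the *U90926* cluster, and it held more of the *Tipe0*-/- cells. The value for the class is a sum over clusters whose shares of the cells differed between the libraries. By cluster, the interval for *Me2* lay above 0 in 7 of 15 clusters and below 0 in 1, the *Akr1c19*-*Gsdmc3* cluster.

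**Figure D5:**
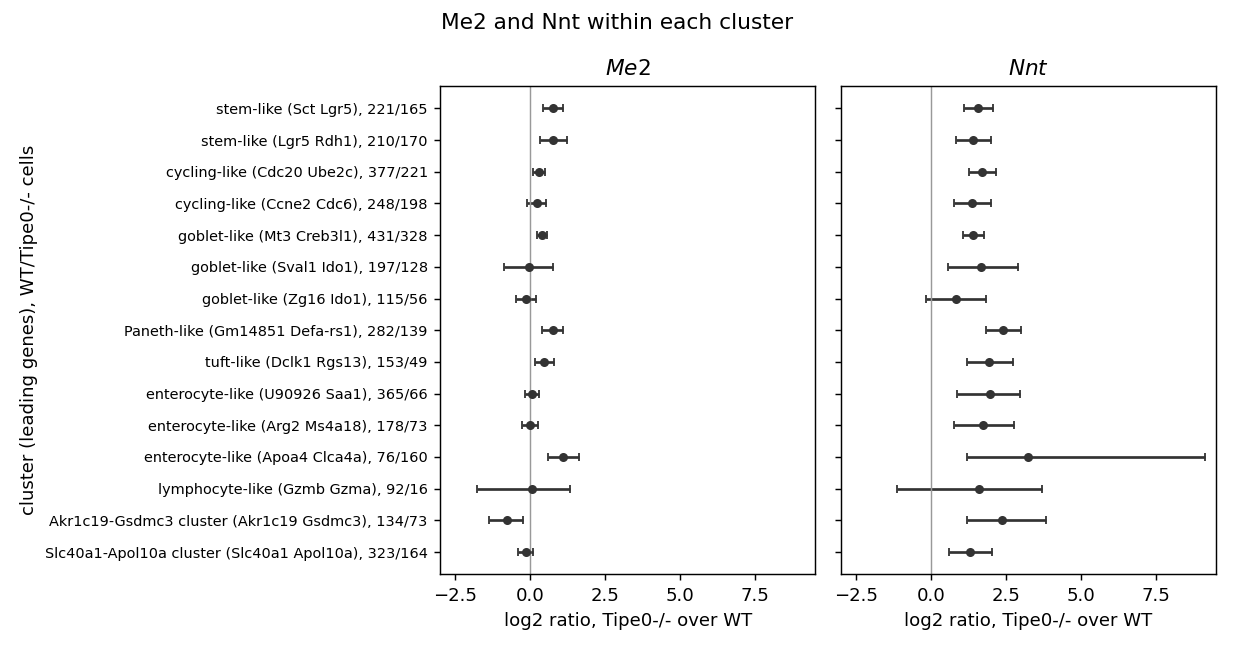
Log2 ratio of *Tipe0*-/- over WT (horizontal axis) with its exact 95% interval for *Me2* and *Nnt* (panels) in the 15 clusters (vertical axis), each with its leading genes and its number of WT and *Tipe0*-/- cells. *Me2* runs from -0.77 to 1.08 and *Nnt* from 0.85 to 3.23.

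*Me3* was highest in enterocyte-like cells, like *Me2*, at 4.16 CPM (2.61 to 6.30) in the WT and 8.12 CPM (4.89 to 12.7) in the *Tipe0*-/- library, and that class gave 22 of its 45 WT and 19 of its 65 *Tipe0*-/- UMIs. The WT interval was apart from that of the cycling-like class (0.517 to 2.36), which came next. It overlapped those of the *Akr1c19*-*Gsdmc3* cluster (0 to 3.87), the tuft-like class (0.0124 to 2.74) and the lymphocyte-like class (0 to 7.69). In the *Tipe0*-/- library the interval overlapped that of the *Slc40a1*-*Apol10a* cluster (1.94 to 9.94), which came next. The log2 ratio of *Me3* was above 0 in the 6 classes in which both libraries had a UMI, and its interval lay above 0 in 2 of them, the cycling-like class with 1.38 (0.03 to 2.89) and the *Slc40a1*-*Apol10a* cluster with 2.63 (0.46 to 6.15).

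*Mthfd2* and *Mthfd1l* shared a pattern that set lymphocyte-like cells against enterocyte-like cells. In the WT library *Mthfd2* was at 79.2 CPM (56.1 to 109) in lymphocyte-like cells, at 29.4 CPM (26.1 to 33.0) in goblet-like and 27.7 CPM (23.9 to 32.0) in cycling-like cells, and at 5.49 CPM (3.68 to 7.88) in enterocyte-like cells. *Mthfd1l* was at 43.8 CPM (27.1 to 66.9) in lymphocyte-like cells of the WT library and at 1.14 CPM (0.417 to 2.47) in its enterocyte-like cells. In the *Tipe0*-/- library the lymphocyte-like class gave only 5 UMIs of *Mthfd2* and 4 of *Mthfd1l*, and enterocyte-like cells were at 2.56 CPM (0.941 to 5.58) and 0.854 CPM (0.103 to 3.09). The log2 ratio of *Mthfd2* had an interval that contained 0 in 9 of 9 classes. For *Mthfd1l* the interval lay above 0 in stem-like cells, with 15.7 CPM in the WT and 24.8 CPM in the *Tipe0*-/- library, a log2 ratio of 0.65 (0.13 to 1.19), and below 0 in none. After thinning to 3000 UMIs, 6.03% of WT and 5.97% of *Tipe0*-/- stem-like cells had a *Mthfd1l* UMI, a difference of -0.0623 points (-3.59 to 3.66).

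Lymphocytes were unequal between the libraries. They were 2.70% of WT and 0.798% of *Tipe0*-/- cells, and 9 of 9 measured lymphocyte markers were called lower, with a summed level of 117 CPM in the WT and 24.2 CPM in the *Tipe0*-/- library. The 5 measured B cell markers were lower too, with 29.1 and 15.4 CPM. Without lymphocyte-like cells, an alternative chosen after the data were seen, the log2 ratio was 0.17 for *Mthfd2*, 0.29 for *Mthfd1l* and again 1.76 for *Nnt*. The median lymphocyte-like cell held 4422 UMIs if WT and 4311.5 if *Tipe0*-/-. Summed markers of fibroblasts (2.41 and 1.42 CPM) and endothelial cells (0.813 and 0.628 CPM) were low in both libraries, with *Pdgfra*, *Cdh5* and *Kdr* at 0.

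*Mthfd2* and *Mthfd1l* were both highest in lymphocyte-like and lowest in enterocyte-like cells of the WT library. For both genes the enterocyte-like interval overlapped those of the *Slc40a1*-*Apol10a* and *Akr1c19*-*Gsdmc3* clusters, so the lowest place was not apart. The order of the classes in between differed, and no correlation of these genes with each other was computed. The 250 bases before their start sites are shown, from RefSeq on GRCm38.p6, 5' to 3' on the strand of the gene. Of the 8 members, 5 had an entry in the promoter table. The capitals mark CCAAT, the CCAAT box, or its reverse complement ATTGG. *Mthfd2* is at chr6:83317605-83317854 on the minus strand and *Mthfd1l* at chr10:3972825-3973074 on the plus strand. The *Mthfd2* window lies inside the GENCODE gene model given above, which begins farther upstream than the RefSeq start.
Mthfd2: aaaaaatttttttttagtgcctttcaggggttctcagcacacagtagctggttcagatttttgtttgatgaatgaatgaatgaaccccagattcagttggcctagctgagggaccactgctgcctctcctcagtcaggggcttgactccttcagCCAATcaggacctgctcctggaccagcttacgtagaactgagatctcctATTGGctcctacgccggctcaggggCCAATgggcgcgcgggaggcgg
Mthfd1l: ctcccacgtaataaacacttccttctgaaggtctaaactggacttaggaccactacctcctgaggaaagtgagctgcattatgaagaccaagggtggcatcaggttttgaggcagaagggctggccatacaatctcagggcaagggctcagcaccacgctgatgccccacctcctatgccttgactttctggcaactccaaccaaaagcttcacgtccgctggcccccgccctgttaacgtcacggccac
The 5 letters occurred 3 times in the *Mthfd2* window, 1 time in that of *Idh2* and not in those of *Mthfd1l*, *Me3* and *Glud1*, and 33.8% of the 32851 windows of this length in the table held them. TGATGNAA, in which N is any base, occurred in the window of *Me3* and in 3.45% of all windows, GCATGCGC in that of *Glud1* and in 2.26%, and CACGTG in none of the 5 members and in 6.02%. All were searched on both strands. They are descriptions of these windows and not shown binding sites, and no window of *Nnt*, *Me2* or *Aldh1l2* was searched.

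The rest of the pathway was read from lists of genes. Of 9 other mitochondrial one-carbon enzymes, 6 were tested, 1 was called higher and 0 lower, with a median log2 ratio of 0.30. *Amt*, a part of the glycine cleavage system, went from 47 WT to 58 *Tipe0*-/- UMIs, or 1.23 to 2.43 CPM, a log2 ratio of 0.97 (0.40 to 1.56). A further list held 13 users of mitochondrial NADPH, direct or through carriers such as glutathione or thioredoxin. All were tested, 0 were called higher and 1 lower, with a median of 0.08. *Prdx5*, a peroxiredoxin, was at 211 CPM in the WT and 154 CPM in the *Tipe0*-/- library, a log2 ratio of -0.46 (-0.51 to -0.40). *Gsr*, the glutathione reductase that takes its electrons from NADPH, was at 392 and 415 CPM, a log2 ratio of 0.08 (0.04 to 0.12). By class the ratio of *Gsr* lay on both sides of 0. It was -0.59 (-0.69 to -0.49) in enterocyte-like cells, the only class with an interval below 0. In the clustering with 15 clusters, that class is a sum over clusters whose shares of the cells differed between the libraries. *Gsr* was not read by cluster. In stem-like cells it was 0.62 (0.48 to 0.75), and in Paneth-like cells, where the median of all genes was 0.48, it was 0.94 (0.75 to 1.14). Of 17 citric acid cycle enzymes 0 were called, with a median of -0.09, and the most abundant, *Mdh2* and *Sdhb*, had log2 ratios of -0.09 (-0.13 to -0.05) and -0.25 (-0.30 to -0.21).

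Of 8 genes of NADPH sources outside the mitochondria, 7 were tested, 0 were called higher and 1 lower, with a median log2 ratio of -0.13. *Me1*, the cytosolic malic enzyme, had 1048 WT and 222 *Tipe0*-/- UMIs, or 27.5 and 9.29 CPM, a log2 ratio of -1.56 (-1.78 to -1.35). In enterocyte-like cells *Me1* was at 67.9 CPM in the WT and 14.5 CPM in the *Tipe0*-/- library, a log2 ratio of -2.21 (-2.78 to -1.72). In the clustering with 15 clusters, this class value too is a sum over clusters of different makeup. *Me1* was not read by cluster. The interval lay below 0 in goblet-like, tuft-like and cycling-like cells and in the *Slc40a1*-*Apol10a* cluster as well. In the *Akr1c19*-*Gsdmc3* cluster, where *Me2* was lower, the ratio of *Me1* was 0.38 (-0.76 to 1.43). The 2 NAD kinases were not called. *Nadk2*, the mitochondrial kinase that makes NADP+, was at 23.7 and 36.5 CPM, a log2 ratio of 0.63 (0.49 to 0.76), and its log2 ratio was above 0 in 9 of 9 classes. The median log2 ratio of all genes was itself above 0 in every class but the lymphocyte-like class. *Nadk*, the cytosolic kinase, was at 78.5 and 73.2 CPM, a log2 ratio of -0.10 (-0.19 to -0.02).

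The genes beside *Nnt* on chromosome 13 were read in the same way. Of the 5 measured genes on each side, 2 of 10 were called higher and 0 lower, with a median log2 ratio of 0.39. Among all tested genes 4.23% were called higher and 6.90% lower, with a median of 0.15. Of the 10 neighbours, 8 lay above that median and 2 did not. The nearest was *Paip1*, 19.6 kb away, with 0.57 (0.42 to 0.71). The next was *4833420G17Rik*, 53.8 kb away, which was called higher, with 620 and 675 UMIs and a log2 ratio of 0.80 (0.64 to 0.96). Farther on the same side *Ccl28* had 0.17, *Hmgcs1* -0.13 and *Zfp131* 0.28. On the other side the nearest measured gene, *Mrps30*, was 948 kb away, with 0.07 (-0.08 to 0.22). Beyond it *Isl1* had 0.70 (0.10 to 1.31) on 48 and 49 UMIs, *Pelo* 0.21 (0.05 to 0.37) and *Itga2* 0.49 (0.10 to 0.88). On that side *Itga1*, 4233 kb away, was called higher with 1.0 (0.51 to 1.51) on 62 and 78 UMIs. None of the 10 had a ratio as large as that of *Nnt*.

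The genes whose levels were most like those of *Nnt* were sought among 7958 genes with at least 500 UMIs over 16 points, the classes with at least 50 cells in a library, by Pearson's correlation of log2(CPM + 1). They were *Mlxipl* with r = 0.861, *Sowahc* with r = 0.828, *Nfib* with r = 0.827, *Gid4* with r = 0.823 and *Zfp36l2* with r = 0.822. The points come from only 2 libraries, so a gene that is higher in the *Tipe0*-/- library and in stem-like cells is favoured, and the log2 ratios of these 5 genes in the whole libraries were between 0.72 and 0.93. Of the members, r was 0.709 for *Glud1*, 0.495 for *Idh2*, 0.0913 for *Me2*, 0.0686 for *Mthfd1l* and 0.0616 for *Mthfd2*.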

How the data were processed

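The authors counted UMIs per gene and cell with Cell Ranger on mm10, and deposited the raw counts of every retained cell of both libraries. Depth was not equalized in them. Sums of counts were scaled to CPM, with exact 95% Poisson intervals. For log2 ratios (*Tipe0*-/- over WT), sums were raised by 0.5, with intervals from the exact binomial distribution. Shares of cells have Clopper-Pearson intervals, after thinning each cell to 3000 UMIs. The interval of a difference in shares combines both Clopper-Pearson intervals. With 1 library per genotype no test was run, and a call means at least 1.5-fold from the median ratio. A value of 0 was given the limit of 3 counts. The step across genes was tested on simulated data with 200 of 11665 genes changed, of which 100% came out in the right direction, and 95.5% of all intervals held the true value. Both simulated libraries were Poisson counts around a shared profile, which is the model the intervals assume. The simulation therefore checks the calculation only, and holds no spread between mice, pools or libraries.

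Clustering used Seurat 5.3.0 (R 4.3.3) and the settings of the study's methods, with variable genes chosen on mean and dispersion, 14 principal components and resolution 0.8. Without the members, the listed genes and the study's genotype genes, 531 of 582 variable genes were used. A cluster took the name whose markers had the highest mean z-score if at least 3 markers were in 10% of its cells and in 1.5 times the share of other cells. The rule that left the *Slc40a1*-*Apol10a* cluster unnamed (no marker among its 10 leading genes and too few markers detected) was added after the clusters were seen. Cell class names rest on these rebuilt clusters and may differ from those of the study. Scrublet, run through Scanpy 1.11.5, called 15 WT and 3 *Tipe0*-/- cells as doublets, which is too few to rely on, so no cell was removed and an alternative left out 149 and 79 cells with the highest scores. Positions are from GENCODE M21.

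The members and lists were chosen with earlier results of these data known. By rule, all members were described, with up to 4 genes of each list past 1.5-fold or else the 2 most abundant, the 5 measured genes on each side of *Nnt* and the 5 genes most like it. The values of *Gsr*, in whole libraries and by class, and those of *Me1* and *Nadk2* by class, were added after they had been seen. Alternatives covered the totals, scaling, doublets, mitochondrial share, thinning, rich cells, class makeup, clustering, pseudocount and filters.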

Additional observations from a re-analysis of the deposited data

Results flagged for a closer look

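The log2 ratio of *Me2* (*Tipe0*-/- over WT) lay on both sides of 0 beyond counting error in different classes: it was -0.16 in enterocyte-like cells and -0.77 in the *Akr1c19*-*Gsdmc3* cluster, against 0.75 in stem-like, 0.74 in Paneth-like, 0.47 in tuft-like, 0.26 in cycling-like and 0.24 in goblet-like cells. The difference between classes was not tested, since each genotype has 1 library. In thinned cells, the difference in the share with a *Me2* UMI had an interval above 0 in stem-like cells only. The interval contained 0 in every other class, and lay below 0 in none. The 3 clusters of the enterocyte-like class had ratios of 0.07 (-0.17 to 0.29), -0.02 (-0.29 to 0.24) and 1.08 (0.58 to 1.63), of which the first and second intervals include the value of the class, while the *Akr1c19*-*Gsdmc3* value comes from 1 cluster with 134 WT and 73 *Tipe0*-/- cells.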

How the results depend on the processing

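The log2 ratio of *Nnt* between whole libraries was 1.76, and it lay between 1.60 and 1.78 under 10 alternatives. On the mean over cells of log-normalized expression it was 0.27, because that scale adds 1 per 10000 UMIs to every cell, and the ratios of the other members shrank on it as well. By class, the log2 ratio of *Nnt* kept its direction under every alternative. It moved beyond its interval in goblet-like cells thinned to 3000 UMIs, to 1.01, and in stem-like cells of the clusters from 2000 variable genes, to 1.92. The difference in the share of cells with a *Nnt* UMI was 8.27 points, and was 22.7 without thinning and 0.501 with at least 2 UMIs required. The count of genes past the fold was 1299, and was 5073 with every gene that had a UMI and 679 with at least 200 UMIs. *Mthfd1l* turned to -0.19 when cells were thinned to 3000 UMIs. The cause of these moves was not tested, beyond what the settings themselves set. *Me2*, whose interval contained 0, was between -0.10 and 0.14, and *Mthfd2* between -0.02 and 0.17. *Idh2* stayed above 0 but fell to 0.07 when cells were thinned. Where another clustering gave no cluster of the same name, the unnamed clusters have no alternative value, and no alternative was computed for the ratio of *Aldh1l2*, which had no UMI in the *Tipe0*-/- library. Leaving out a replicate was not possible with 1 library per genotype. No paired analysis was possible because each genotype has 1 library and no test was run. *Me3*, with 45 and 65 UMIs, and *Aldh1l2*, with 8 and 0, are limited by depth.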
